A study of Homo sapiens with 13 samples.

Results

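The first days of IRF4 loss in the myeloma line KMS12 were described from 6 of the 13 arrays of the series, which were the 3 arrays labelled day 2 or day 3 and the 3 uninduced (day 0) arrays of the same culture series. The members were chosen by cell line, day and series name in the labels, and no measured value entered the choice. KMS12 is an established line of plasma cell cancer. The cells had been infected with a doxycycline-inducible hairpin against IRF4 (shi_1332, shi_1332b or shi_2046) or with a control hairpin against luciferase (shluc). Each array compared both infected cultures of KMS12 on a Lymphochip spotted cDNA array, with the IRF4 hairpin in Cy5 and shluc in Cy3. In the uninduced arrays both cultures were untreated. In the induced arrays both had received doxycycline at 20 ng/ml, for 3 days in series 1332 and for 2 days in series 1332b and 2046. The day can therefore not be told apart from the series, and the labels do not say whether a culture was a clone or a mixed population. All values stand for 1 cell line, and repeats are not said to be separate infections, so the spread behind each p-value is that among these arrays and may be technical.

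IRF4 is a transcription factor of the interferon regulatory factor family that plasma cells need for their identity and that myeloma cells depend on for survival. It binds DNA weakly alone and more firmly together with partners such as PU.1, SPIB or BATF, at composite elements that hold a GAAA core. In plasma cells it acts beside BLIMP1 (PRDM1) and XBP1, and in myeloma it is known to form a loop with MYC, the driver of ribosome production and cell growth.

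A feature entered if it had a value on all 6 arrays. This held for 5132 of 15246 features, which gave 3670 items to test, 2282 named genes and 1388 features with no single gene name. An array ratio carries no absolute level, so the plasma cell label could not be checked by level. PRDM1, XBP1, SDC1, CD38 and TNFRSF17, which mark plasma cells, had values on all 6 arrays. Features with a value numbered 7140 to 14228 on the 6 arrays. The spread of the ratios was uneven. The median absolute deviation over tested items, scaled to match an SD, was 0.369, 0.205 and 0.388 on the uninduced arrays of series 1332, 1332b and 2046, and 0.559, 0.665 and 0.311 on the induced arrays in the same order. The induced array of series 2046 thus stood apart with the narrowest spread of the 3, and the main counts below are given with and without it. Leaving it out also removes hairpin shi_2046 from the induced side, so those counts rest there on shi_1332 and shi_1332b alone. The number of arrays limits the precision throughout.

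The ratio of IRF4 itself lay lower at days 2-3 in every series. On the uninduced arrays its log2 ratio was 0.21 in series 1332, 0.12 in 1332b and 0.09 in 2046, close to equal amounts in both cultures. On the induced arrays the ratio was -1.13, -1.76 and -1.03 in the same order. All 3 induced arrays lay below all 3 uninduced arrays, with series 1332b lowest. The mean went from 0.14 ± 0.06 (SD, n = 3) to -1.30 ± 0.39 (SD, n = 3), a 2.73-fold lower ratio (log2 difference -1.45, SE 0.21). In the fit of limma with the series as a block, the adjusted p of IRF4 was 0.0589, just short of the threshold of 0.05. Without the induced array of series 2046 the log2 difference was -1.62 with a limma adjusted p of 0.00958, which passed. Without the whole of series 2046 it was -1.61 with a limma adjusted p of 0.0581, which did not pass.

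**Figure D1:**
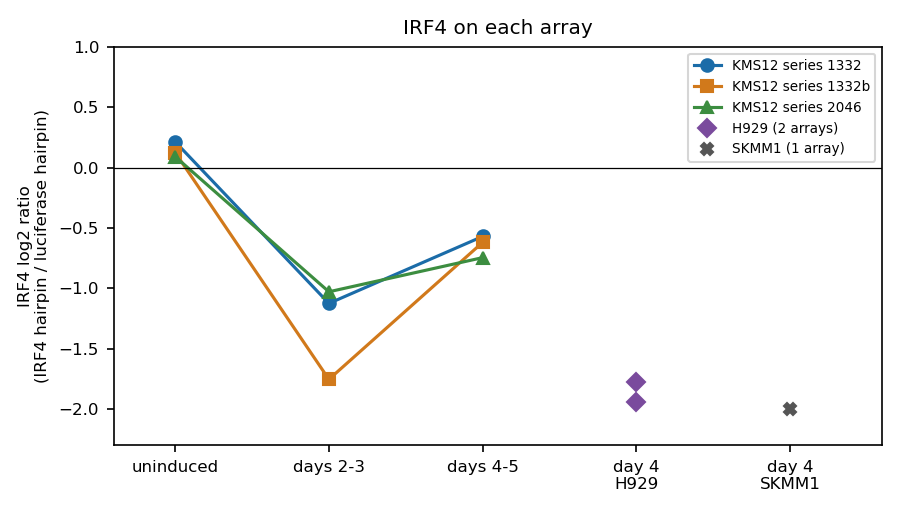
The vertical axis is the centred log2 ratio of IRF4, hairpin over luciferase culture, with 1 point per array and lines joining arrays of 1 KMS12 series; H929 and SKMM1 at day 4 have no uninduced array. The 3 uninduced arrays sit between 0.09 and 0.21 and the 3 arrays at days 2-3 between -1.76 and -1.03.

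Across all genes, no single difference passed at days 2-3, while many lay well away from 0. In the limma fit, 0 of 3670 items had an adjusted p under 0.05 (percent called 0), and 1153 had an unadjusted p below that value (31.4%), against 184 for a test of pure noise. The smallest adjusted p was 0.0589, shared by 90 items. At an adjusted p under 0.1, a line used below only to describe, there were 488 lower items (13.3%) and 224 higher ones (6.1%). The lower side thus held 68.5% of them, against 93.8% without centring of the arrays and 78.5% with the arrays scaled to one spread. It was smaller with array weights, at 55.3%, and without series 1332b, at 57.4%. All 3 induced arrays lay below all 3 uninduced arrays for 630 items (17.2%), and above them for 586 (16%). Without centring, the median of the tested features would stand at -0.255 (log2) between the groups, so every difference given here is relative to the median feature. That shift was uneven. The median before centring was 0.051, 0.027 and 0.357 on the uninduced arrays of series 1332, 1332b and 2046. On the induced arrays it was -0.113, -0.149 and -0.068 in the same order. Without the induced array of series 2046, 609 items passed (16.6%), 492 lower (13.4%) and 117 higher (3.19%). No other single array had this effect, and leaving out any of the other 5 gave 0.

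The 3 series, each with its own uninduced array, moved alike in part. Over the 3670 items the differences of series 1332 and 1332b correlated at r = 0.634, those of 1332 and 2046 at 0.534 and those of 1332b and 2046 at 0.416. These values describe items on the same array design, which share spots and dyes and are not independent replicates. Differences beyond 1 on the log2 scale numbered 739 in series 1332, 571 in 1332b and 212 in 2046. Series 1332b had most of these on the lower side, 504 against 67 above, while series 2046 had 90 below and 122 above.

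**Figure D2:**
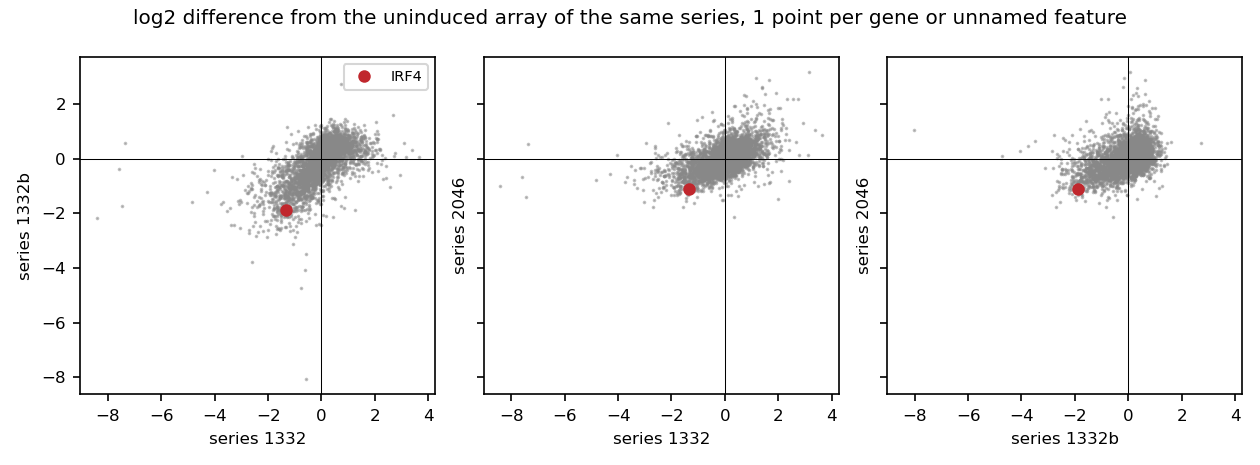
Each point is 1 gene or unnamed feature, placed by its log2 difference from the uninduced array in 2 of the 3 series; IRF4 is in red. The clouds run from lower left to upper right (r between 0.416 and 0.634), and the few points far outside them have an extreme value in 1 series.

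The 12 lower genes with the smallest p came from several parts of cell biology, and none of them passed over all 3 series. Each lay lower on all 3 induced arrays than on any uninduced array, as did 17.2% of all items, and the choice by smallest p favours such genes. All 12 passed without the induced array of series 2046. That fit reuses the arrays by which these genes were ranked, so it is no separate support. In it 16.6% of all items passed. CCNC encodes cyclin C, a subunit of the Mediator kinase module. Its ratio was 0.50, -0.09 and 0.53 on the uninduced arrays of series 1332, 1332b and 2046, and -2.02, -2.09 and -0.86 on the induced ones. Series 1332 and 1332b were far lower than 2046, and the groups did not overlap (difference -1.97, SE 0.27, limma adjusted p 0.0589). TMEM123 (porimin, a membrane mucin) had the furthest mean of these 12, at -2.40 (SE 0.41). It went from 0.32, 0.24 and 1.12 to -2.72, -2.31 and -0.47, again least in the last series. DBF4, the regulatory subunit of the kinase that fires replication origins, went from 0.45, -0.10 and 0.16 to -2.25, -2.71 and -0.98 (difference -2.15, SE 0.40). These 3 genes shared the order of the series, with 2046 the least lowered.

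The other lower genes of this set included enzymes of metabolism and proteins of mitochondria and the nucleolus. NPM1 (nucleophosmin, a nucleolar chaperone of ribosome assembly) stood at -1.16 (SE 0.20), with -1.40, -0.91 and -1.16 in series 1332, 1332b and 2046, an even shift. CMPK1, the kinase that charges pyrimidine monophosphates, stood at -1.54 and AGPAT5, an acyltransferase of phospholipid synthesis, at -1.57. UAP1, which makes the UDP sugar for N-linked glycans, stood at -1.15, and ECHDC1, an enzyme that clears a side product of fatty acid synthesis, at -1.21. ADAM10 (-1.33) is a sheddase of cell surface proteins. YME1L1 (-1.12) is a protease of the inner mitochondrial membrane, and HSPA9 (-1.01) the chaperone of the mitochondrial matrix. MDFIC, an inhibitor of MyoD family factors, stood at -1.22.

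The 12 higher genes with the smallest p included signalling and cell cycle genes, and likewise none passed over all 3 series while all 12 passed without the induced array of series 2046. Again that is no separate support, since the same arrays ranked these genes. Each lay higher on all 3 induced arrays than on any uninduced one, as did 16% of all items, and the choice by smallest p favours such genes. PLAU, the urokinase plasminogen activator, had ratios of -0.35, -0.24 and -0.51 uninduced and 0.97, 0.66 and 0.51 induced (difference 1.08, SE 0.20, limma adjusted p 0.0589). The shift was even over the series. CDKN1A, the cyclin-dependent kinase inhibitor p21, went from -0.75, 0.15 and -0.38 to 0.23, 0.68 and 0.53 (difference 0.81, SE 0.18, limma adjusted p 0.0605). PLCG2, the phospholipase downstream of the B cell receptor, went from -1.12, -0.45 and -1.13 to 0.52, 0.35 and 0.53 (difference 1.37, SE 0.29). For PLCG2 the uninduced arrays were the low ones, while the induced ratios were modestly above 0.

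SOX4, a factor of early B cell development, stood at 1.26 (SE 0.26), and its uninduced ratios were uneven, -1.32, 0.09 and -0.90. STAT5A stood at 0.94 and IL11RA, a cytokine receptor chain, at 1.31. TNFRSF18 (GITR) went from -0.47, 0.31 and -0.08 to 1.03, 1.01 and 0.73, EHD1, a factor of endosome recycling, at 1.25, and HSH2D, an adaptor of lymphocyte signalling, at 0.95. MAPK3, the kinase ERK1, stood at 0.97 and TMEM134 at 1.09. HBB, the beta chain of haemoglobin and a marker of red blood cell precursors, also belonged to this set at 1.20. Several of these values rest on the filter. With features on at least 2 of 3 arrays of each group, HBB stood at 0.40, IL11RA at 0.58, PLCG2 at 0.76 and SOX4 at 0.74.

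**Figure D3:**
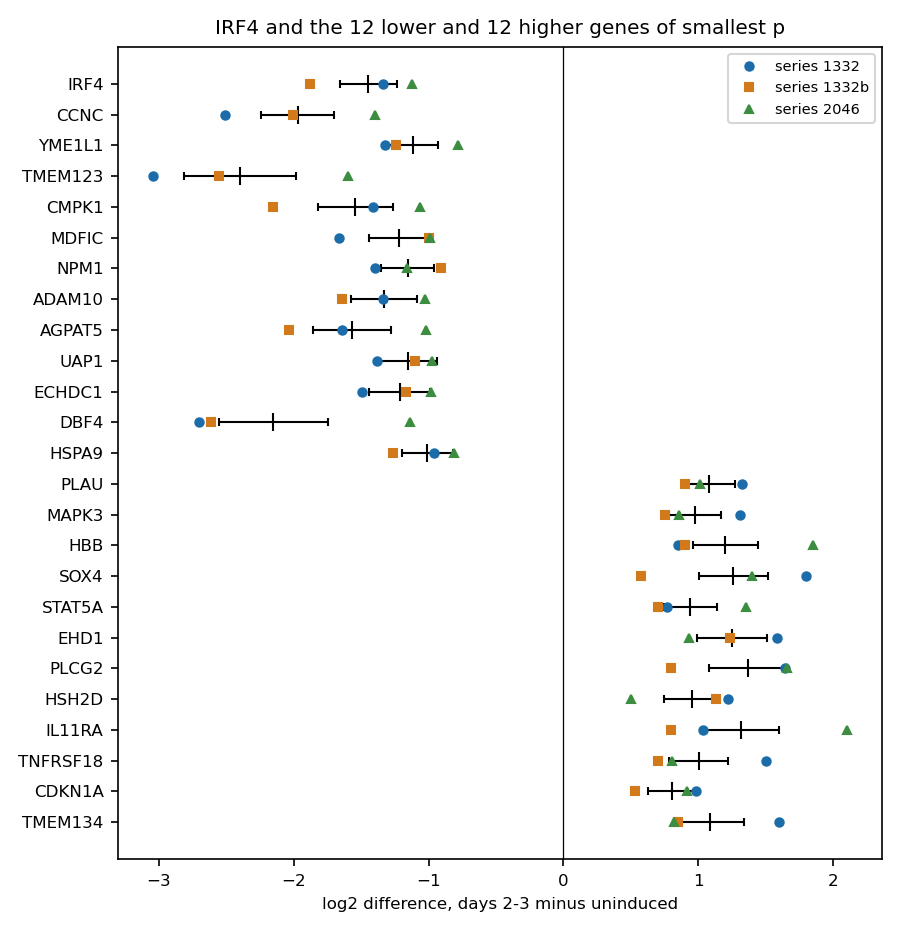
Log2 differences of IRF4 and the 24 genes of smallest p, with 1 symbol per series and a black mark and bar for the mean and its SE from the limma fit. Every symbol lies on 1 side of 0 for each gene, which the rule of choice required of the 24 genes. Series 2046 is nearest to 0 for each of the 12 lower genes except NPM1.

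Gene lists were then read by role. The share of members under the descriptive line is to be read against 13.3% of all items lower and 6.1% higher. Counts that passed without the induced array of series 2046 are to be read against 13.4% lower and 3.19% higher in that fit. Over all items, 492 of the 609 calls of that fit were lower. With the whole of series 2046 left out, 0 items passed, so those counts depend on keeping its other arrays. In the lists, 402 genes were measured, and 0 of them passed in the fit of all 3 series, so each list is given as its median difference and its members under the descriptive line. The median of all 3670 items was 0.05. Without centring every list median would lie lower by the same shift, so lists above 0 come closer to 0 and lists below 0 move away from it.

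**Figure D4:**
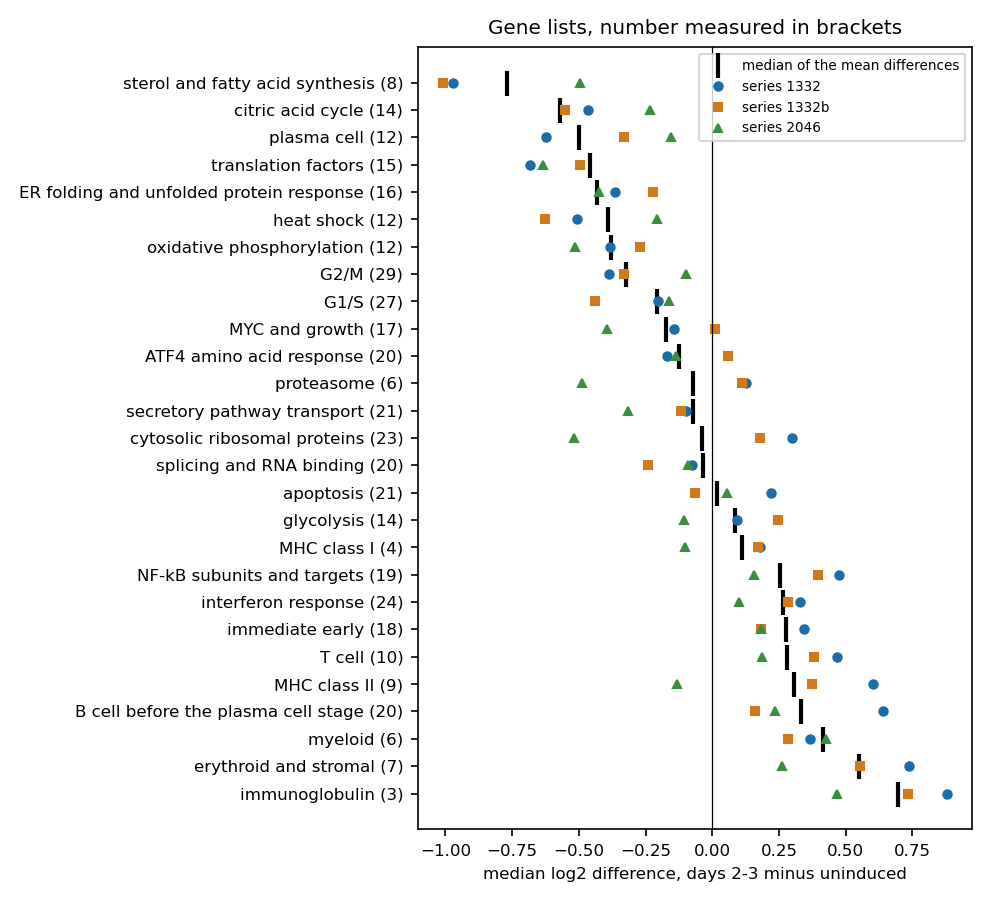
Median log2 difference of each gene list over its measured members, with 1 symbol per series and a black mark for the median of the mean differences. The medians run from -0.77 for the sterol and fatty acid list to 0.70 for the 3 immunoglobulin genes, and without centring each lies lower by the same amount.

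Genes of plasma cell identity lay mostly lower. Of 12 measured, 9 were below 0 with a median of -0.50, and 3 were lower at an adjusted p under 0.1 (25% of the list, against 13.3% of all items). The median was -0.29 with features on at least 2 of 3 arrays of each group. JCHAIN, the joining chain of secreted antibody polymers, went from 0.29, 0.16 and 1.10 uninduced to -1.11, -1.62 and -0.19 induced in series 1332, 1332b and 2046. The groups did not overlap, and the difference was -1.49 (SE 0.48). ITGA4, an integrin chain that holds plasma cells in the marrow, stood at -1.08 (SE 0.27) and TNFRSF17 (BCMA), a survival receptor, at -0.73 (SE 0.24). ELL2, the elongation factor that favours secreted antibody mRNA, stood at -0.85 and was uneven, with -1.86, -0.54 and -0.14. Of the transcription factors, PRDM1 stood at -0.53 (SE 0.22), near the list median, and XBP1 closer to 0 at -0.18 (SE 0.19). The surface marker SDC1 (CD138) stood at 0.12. Without the induced array of series 2046, ITGA4, JCHAIN and SLAMF7 passed as lower.

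The immunoglobulin genes went the other way. IGHM, the heavy chain of IgM, had ratios of -0.28, -0.21 and -0.56 uninduced and 0.59, 0.40 and 0.04 induced. IGHD stood at 0.73 (SE 0.19) and IGHM at 0.70 (SE 0.21), and both had all induced arrays above all uninduced ones (16% of all items did). IGLL1, the surrogate light chain, stood at 0.34 and was below 0 in series 2046. With IGHD alone passing without the induced array of that series, this group of 3 is thin.

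MYC and its growth targets showed a modest shift with a few low members. MYC, read from 4 features, went from 0.54, -0.19 and 0.37 uninduced to 0.12, -0.74 and -0.28. It was lower in each series, by 0.42, 0.55 and 0.65, but the groups overlapped, with uninduced ratios that differed between series. The mean difference was -0.54 (SE 0.18, limma adjusted p 0.0934). Over the list of 17, 12 lay below 0 with a median of -0.17, and 4 were lower at an adjusted p under 0.1 (23.5%, against 13.3% of all items). The median was -0.05 without series 2046 and -0.09 without its induced array. In that last fit NCL, NPM1, TFRC and WDR36 passed as lower and PPAN as higher, while MYC did not pass (limma adjusted p 0.144). The 4 in the fit of all arrays were MYC, NPM1, TFRC (the transferrin receptor, -0.71) and WDR36 (a nucleolar factor, -1.36). NCL (nucleolin) stood at -0.95, and the wide uninduced ratios of 1.11, -1.10 and -0.41 went with an adjusted p of 0.12 in limma. FBL, CAD and PPAN stood at 0.29, 0.30 and 0.51, so the growth genes did not share 1 direction.

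Cell division genes lay mostly lower, with members on both sides. Of 29 measured G2/M genes 21 lay below 0, with a median of -0.32, and 7 were lower and 0 higher at an adjusted p under 0.1 (24.1% lower, against 13.3% of all items). The topoisomerase TOP2A went from 0.42, -0.01 and 0.67 uninduced to -1.56, -1.76 and -0.13 induced (difference -1.51, SE 0.32, limma adjusted p 0.0589). BUB1, a kinase of the spindle checkpoint, went from 0.30, 0.11 and 0.47 to -0.91, -1.69 and -0.08. CKS2, a cofactor of cyclin-dependent kinases, went from 0.23, 0.09 and 0.49 to -0.89, -0.75 and -0.20. In all 3 the groups did not overlap (17.2% of all items lay lower in this way). The induced array of series 2046 was the highest of the induced arrays in each. CCNA2 (cyclin A, -1.03), MAD2L1 (a checkpoint protein, -1.20), CENPF (a kinetochore protein, -1.21) and TTK (a checkpoint kinase, -0.77) completed the 7. Others of the same stage lay above 0, among them CDC20 (0.37), UBE2C (0.34), FOXM1 (0.33) and PLK1 (0.31). For each of those 4, all induced arrays lay above all uninduced ones (16% of all items did), though none had an adjusted p under 0.1 in limma. Without the induced array of series 2046, 10 of the 29 G2/M genes passed, all lower, against 13.4% of all items lower in that fit.

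Among 27 genes of DNA replication and the G1/S step, 19 lay below 0 (median -0.21), 5 were lower at an adjusted p under 0.1 and 1 was higher. These shares of 18.5% and 3.7% lie near the 13.3% and 6.1% of all items. Without the induced array of series 2046, 6 passed, all lower. PCNA, the sliding clamp of DNA polymerase, stood at -0.98 (SE 0.20) with -0.95, -1.09 and -0.89 in the series, an even shift. RFC1 (-0.91), RFC4 (-0.78) and RFC3 (-0.62), subunits of the clamp loader, and POLA1 (-0.65), the priming polymerase, were the other lower ones. The higher one was CDC25A, the phosphatase that activates cyclin-dependent kinases, at 1.09 (SE 0.32). It went from -0.30, -0.11 and -1.10 to 0.67, 0.27 and 0.83. The helicase subunits MCM2 and MCM5 stood at 0.32 and 0.33, and MCM4 at -0.38.

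Promoters of the lower G2/M genes are shown because cell cycle genes are known to share promoter elements. The sequences were taken from RefSeq (GRCh38.p14), each the 250 bases before the annotated start, 5' to 3' on the strand of the gene. Capitals mark the CCAAT box, bound by NF-Y (CCAAT, or ATTGG on the other strand), and the CHR element of cell cycle genes (TTTGAA, or TTCAAA on the other strand). These genes were chosen after their values were seen. TOP2A is at chr17:40417897-40418146, minus strand, CKS2 at chr9:89310945-89311194, plus strand and BUB1 at chr2:110678064-110678313, minus strand.
TOP2A: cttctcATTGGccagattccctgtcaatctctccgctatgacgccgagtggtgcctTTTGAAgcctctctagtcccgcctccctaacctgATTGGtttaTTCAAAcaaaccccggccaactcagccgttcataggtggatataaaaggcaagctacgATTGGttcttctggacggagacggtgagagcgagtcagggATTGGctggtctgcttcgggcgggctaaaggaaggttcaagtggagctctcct
CKS2: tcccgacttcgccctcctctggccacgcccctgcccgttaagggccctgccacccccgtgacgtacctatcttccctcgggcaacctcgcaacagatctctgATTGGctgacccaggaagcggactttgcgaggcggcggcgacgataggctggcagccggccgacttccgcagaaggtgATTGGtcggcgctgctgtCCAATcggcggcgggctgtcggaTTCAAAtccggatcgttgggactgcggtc
BUB1: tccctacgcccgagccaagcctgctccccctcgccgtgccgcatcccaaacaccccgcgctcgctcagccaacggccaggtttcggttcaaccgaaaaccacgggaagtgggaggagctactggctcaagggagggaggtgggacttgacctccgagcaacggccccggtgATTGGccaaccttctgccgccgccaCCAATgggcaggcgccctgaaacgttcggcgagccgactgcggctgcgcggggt
TOP2A held 4 CCAAT boxes and 2 matches to the CHR letters, CKS2 held 3 and 1, and BUB1 held 2 and 0. Of the 29 measured G2/M genes, 23 had a promoter in the table. A CCAAT box was found in 19 of the 23 (82.6%), against 33% of the 27305 promoters in the table and 35.5% of the 1913 tested genes with a promoter. The CHR letters were found in 12 of 23 (52.2%), against 13.6% and 9.2%. These are matches of letters, given as a description, and CDC20 and PLK1, which stood above 0, held both elements too.

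Every measured gene of sterol and fatty acid synthesis lay below 0. The median of the 8 was -0.77, and 5 were lower at an adjusted p under 0.1 (62.5%, against 13.3% of all items). The median was -0.36 with features on at least 2 of 3 arrays of each group, where the citric acid cycle list stood lower at -0.68. IDI1, the isopentenyl isomerase of the sterol pathway, went from 0.15, -0.30 and 0.83 uninduced to -2.51, -2.27 and -0.69 induced (difference -2.05, SE 0.42). INSIG1, the anchor that retains the sterol sensor SCAP, stood at -1.12 (SE 0.24) and SQLE, squalene epoxidase, at -1.07 (SE 0.24). ELOVL5, a fatty acid elongase, stood at -0.72 and SC5D, a late sterol desaturase, at -0.77. The 3 not under that line were FADS1 (-0.69), CYP51A1 (-0.77) and SCD (-0.28), and features of SCD did not share a sign. In 7 of the 8 genes all induced arrays lay below all uninduced ones (17.2% of all items did). The list median was -0.97, -1.01 and -0.50 in series 1332, 1332b and 2046, and 5 genes passed without the induced array of 2046.

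Translation factors lay mostly below 0, while ribosomal protein genes had a median near 0. Of 15 translation factors 12 lay below 0 (median -0.46), and 6 were lower at an adjusted p under 0.1 (40%, against 13.3% of all items). The fit that left out the induced array of series 2046 had 5 genes past the threshold, all lower. EIF2S2, a subunit of the factor that brings the initiator tRNA, went from 0.30, -0.04 and 0.78 to -1.37, -1.98 and -0.45 (difference -1.62, SE 0.35). EIF5 stood at -1.42, EIF4G2 at -1.44 and EIF3E at -1.39. EIF4E, the cap-binding protein, stood at -0.99 (SE 0.25) and EIF4H, a helicase cofactor, at -0.77. The 23 cytosolic ribosomal protein genes had a median of -0.04, with 1 lower at that line, RPL9 (-0.61), or 4.35% of them. Their median was 0.30 in series 1332, 0.18 in 1332b and -0.52 in 2046, so its sign turned when either array of series 2046 was left out. Among 20 splicing and RNA-binding genes the median was -0.03, and 5 were lower at an adjusted p under 0.1, including DDX5 (an RNA helicase, -1.03) and HNRNPK (-0.97). That is 25% of the list, and 4 passed without the induced array of series 2046. The splicing median was slightly above 0, at 0.0066, without the induced array of series 1332, and above 0 with the arrays scaled to one spread.

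**Figure D5:**
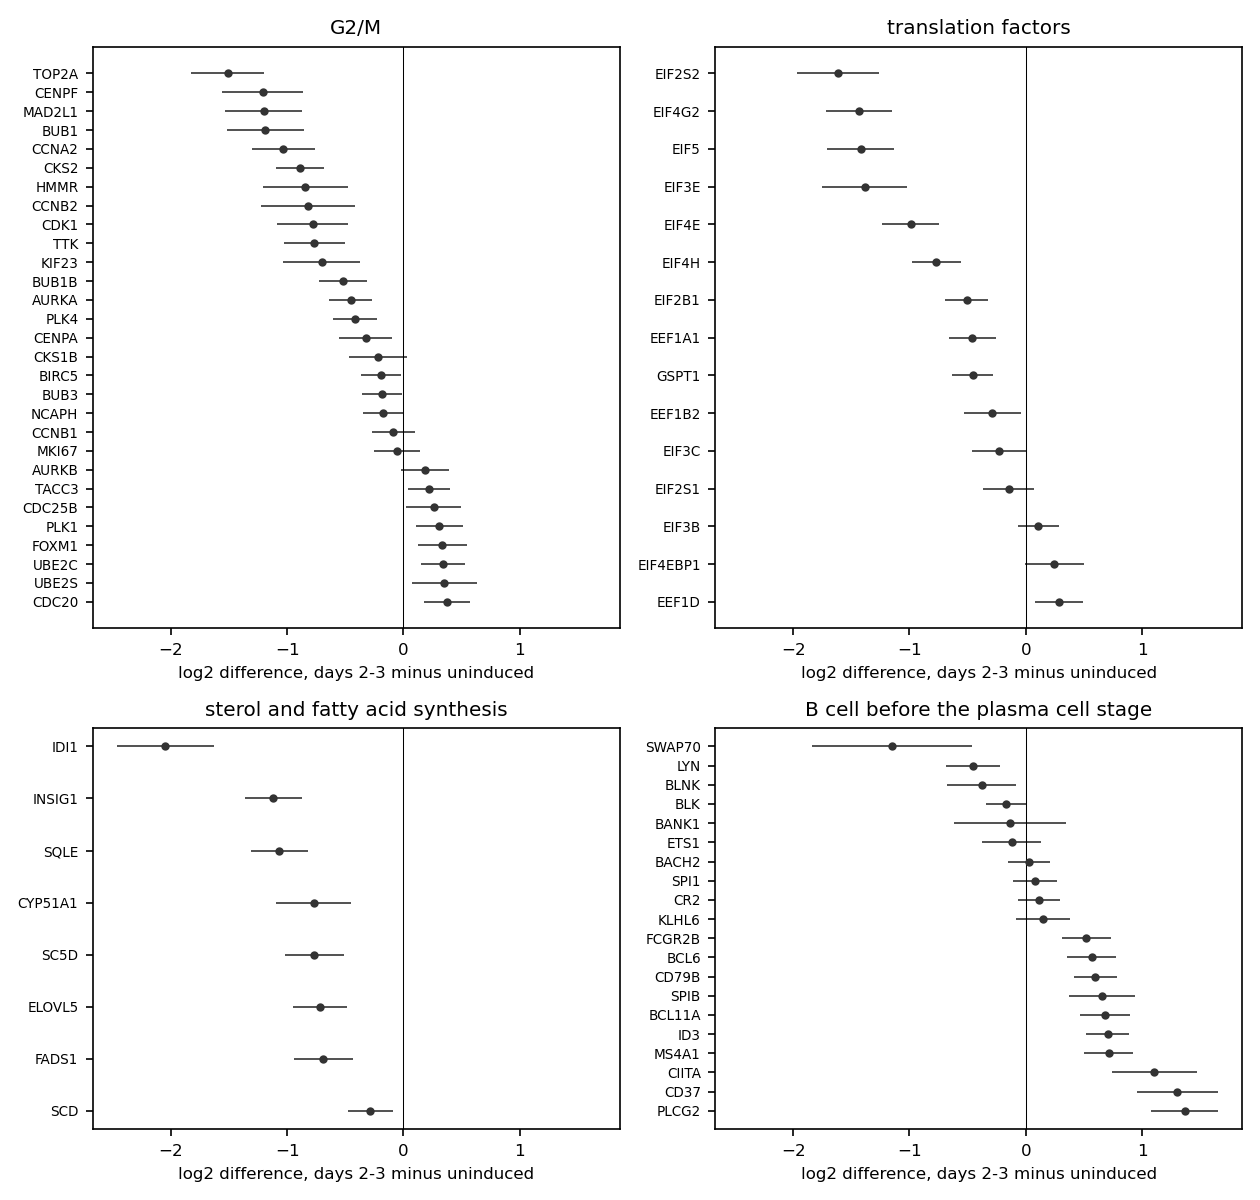
Mean log2 difference of each measured member of 4 lists, with bars for the SE from the limma fit. All 8 sterol and fatty acid genes lie below 0, while the other 3 lists hold members on both sides.

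Chaperone genes of 1 family stood at different values. HSP90AA1, the inducible cytosolic HSP90, went from 0.46, -0.10 and 1.28 uninduced to -2.24, -2.82 and -0.47 induced (difference -2.39, SE 0.47, limma adjusted p 0.0589). Its constitutive relative HSP90AB1 stood at -0.14 (SE 0.18). The difference between the pair was not tested. HSP90B1, the form in the endoplasmic reticulum, stood at -1.66 (SE 0.32) and HSPA5 (BiP), the main chaperone there, at -0.85 (SE 0.22). Of 12 heat shock and cytosolic folding genes 4 were lower at an adjusted p under 0.1 (33.3%, against 13.3% of all items; median -0.39), with CCT3, a chaperonin subunit, at -0.85 and PTGES3, a cochaperone of HSP90, at -0.67, -1.57 and -0.76 in the 3 series. The features of CCT3 did not share a sign. The list median was -0.67 without the induced array of series 2046, where 5 genes passed as lower, and -0.19 without that of 1332b. HSPA1A stood at 0.54 with -0.42 in series 1332b.

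Of 16 genes of folding in the endoplasmic reticulum, 11 lay below 0 (median -0.43) and 3 were lower at that line, HSP90B1, HSPA5 and the reductase DNAJC10 (-1.42). Their share, 18.8%, is near the 13.3% of all items, and the same 3 passed without the induced array of series 2046. Calreticulin (CALR) and PDIA3 stood at 0.03 and 0.14. Of 21 genes of protein entry and transport in the secretory pathway, 7 were lower (33.3%, against 13.3% of all items) and 1 higher, around a median of -0.07, which was 0.0096 without the uninduced array of series 2046. Without the induced array of that series 6 passed, all lower. SRP9 and SRP54, parts of the signal recognition particle, stood at -1.55 and -1.11, and SSR1 and TRAM1, beside the translocon, at -1.22 and -0.73. SEC62, also of the translocon, stood at -2.41 (SE 0.71), a mean carried by series 1332 at -4.84 against -1.59 and -0.79. LMAN1, a cargo receptor, stood at -1.18 and RAB2A, a GTPase of early transport, at -0.68. The higher one was STX5, a Golgi SNARE, at 0.58. Subunits of the same machinery such as SEC61A1 (0.33) and DDOST (0.31) stood above 0. Features of TRAM1 did not share a sign.

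Amino acid genes under ATF4 were mixed. Of 20 measured, 12 lay below 0 (median -0.13), with 3 lower and 1 higher at an adjusted p under 0.1. These shares, 15% and 5%, are near the 13.3% and 6.1% of all items, so the count says nothing particular of the list. EPRS1, MTHFD2 and NARS1 passed as lower without the induced array of series 2046. NARS1, which charges the tRNA of asparagine, went from 0.45, -0.11 and 0.74 to -1.39, -1.59 and -0.27 (difference -1.44, SE 0.29). MTHFD2, a mitochondrial enzyme of one-carbon metabolism, stood at -1.34 and IARS1 at -0.79. The neutral amino acid transporter SLC1A4 stood at 0.63, even over the series at 0.69, 0.55 and 0.66. ATF4 itself stood at -0.47, ASNS at -0.13 and DDIT3 at -0.12, the last with features of opposite sign.

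Mitochondrial genes lay mostly below 0, and glycolytic genes had a median slightly above it. All 12 measured genes of oxidative phosphorylation were below 0 (median -0.38), 2 of them at an adjusted p under 0.1 (16.7%, near the 13.3% of all items), and the same 2 passed without the induced array of series 2046. Cytochrome c (CYCS) was even over the series, with -1.38, -1.32 and -1.23 (mean -1.31, SE 0.25), and UQCRB, of complex III, stood at -1.05. In the citric acid cycle and the steps that feed it, 9 of 14 lay below 0 (median -0.57) and 4 were lower at that line (28.6%), ME2 (malic enzyme, -1.47), IDH3A (-1.03), PDHB (-0.58) and IDH1 (-1.06, -1.50 and -0.46 in the 3 series). IDH3G and MDH2 stood at 0.57 and 0.43. The fit that left out the induced array of series 2046 had 5 genes of the citric acid cycle list past the threshold, all lower. The 14 glycolytic genes had a median of 0.09, which turned to below 0 without centring, with the arrays scaled to one spread, and without series 1332b. ALDOA, an aldolase, was the 1 member at an adjusted p under 0.1 and stood at 0.82. HK2, a hexokinase, stood at -0.62 and passed as lower without the induced array of series 2046. The 6 proteasome genes had a median of -0.07, which was above 0 without series 2046, and 1 was lower at that line, PSMD14 (-1.04), the subunit that removes ubiquitin.

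Survival genes lay on both sides of 0. Of 21 apoptosis genes 3 were lower at an adjusted p under 0.1 and 1 was higher, around a median of 0.02 that lay below 0 without centring, with 1 feature per gene and without series 1332. The shares, 14.3% and 4.76%, are near the 13.3% and 6.1% of all items. BCL2, an inhibitor of cell death, went from 0.26, 0.12 and 0.28 uninduced to -0.62, -1.39 and -0.22 induced (difference -0.96, SE 0.29). MCL1, the BCL2 relative that myeloma cells rely on, stood at -0.75 (SE 0.23). PMAIP1 (NOXA), which opposes MCL1, was lower too at -0.89 (SE 0.25). The higher one was BIK, another member that promotes death, at 0.52 (SE 0.17). BCL2L1 stood at 0.02 with features of opposite sign. BCL2, MCL1 and PMAIP1 passed as lower and TNFRSF10B, a death receptor, as higher without the induced array of series 2046.

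In the NF-kB list, 4 of 19 genes were higher and 2 lower at an adjusted p under 0.1, around a median of 0.25 that was -0.0026 without centring and 0.43 without the induced array of series 2046. The higher share, 21.1%, stands against 6.1% of all items, and the lower share, 10.5%, against 13.3%. Without that array IL2RG, NFKB2 and RELB passed as higher and BCL2A1 and BIRC2 as lower. Both subunits of the alternative pathway lay on the higher side. NFKB2 went from -0.66, -0.09 and -0.35 to 0.34, 0.71 and 0.36 (difference 0.84, SE 0.20), and RELB stood at 0.72 (SE 0.22). The classical subunits NFKB1 and RELA stood at -0.31 and 0.34. IL2RG, a shared cytokine receptor chain, stood at 0.77 and the chemokine CCL5 at 0.58. The lower pair were BIRC2 (cIAP1), a ubiquitin ligase that restrains the alternative pathway, at -1.25 (SE 0.28), and BCL2A1 at -1.38. BIRC2 went from 0.11, 0.01 and 0.59 to -1.56, -0.97 and -0.52, with no overlap. Of 18 immediate early genes 14 lay above 0 with a median of 0.28, which was 0.02 without centring. Of all 18, 2 were lower and 1 higher at an adjusted p under 0.1 (11.1% and 5.56%, near the shares of all items). The lower ones were the orphan receptor NR4A1 at -1.19 (SE 0.25) and KLF10 at -0.63, and the higher one was SGK1, a kinase, at 0.70. NR4A1 alone passed without the induced array of series 2046.

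Interferon-induced genes lay mostly higher. Of 24 measured, 16 were above 0 (median 0.26, and 0.0092 without centring), with 6 higher and 1 lower at an adjusted p under 0.1 (25% and 4.17%, against 6.1% and 13.3% of all items). The fit that left out the induced array of series 2046 had 5 genes past the threshold on the higher side, namely IFI35, IFI6, IFITM1, IFITM3 and ISG15. IFITM1, a membrane protein that blocks virus entry, measured by 6 features, went from 0.01, 0.37 and 0.29 uninduced to 1.33, 1.19 and 0.52 induced (difference 0.79, SE 0.23). ISG15, a ubiquitin-like protein, went from -0.41, 0.20 and 0.19 to 0.60, 1.07 and 0.44 (difference 0.71, SE 0.23). Both had no overlap between the groups (16% of all items lay higher in this way). IFI35 (0.77), IFITM3 (0.69), EIF2AK2 (the kinase PKR, 0.68) and PML (0.66) were the others. The lower one was IFI16, a DNA sensor, at -1.15 (SE 0.33). The other measured IRF genes stood at 0.26 for IRF3, -0.18 for IRF2, whose features did not share a sign, and -0.31 for IRF9.

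Promoters of ISG15 and IFITM1 are shown because IRF proteins as a family bind the element in them, and that of CMPK1 because, of the 10 promoters found for the 12 lower genes, it alone held a composite match. Capitals mark the interferon response element (GAAA, any 2 bases, GAAA; both strands) and the ETS-IRF composite element (GGAA, any 2 bases, GAAA; both strands), which cannot match at the same position. Again these are the 250 bases before the annotated start from RefSeq GRCh38.p14. ISG15 is at chr1:1013247-1013496, plus strand, IFITM1 at chr11:313790-314039, plus strand and CMPK1 at chr1:47333540-47333789, plus strand.
ISG15: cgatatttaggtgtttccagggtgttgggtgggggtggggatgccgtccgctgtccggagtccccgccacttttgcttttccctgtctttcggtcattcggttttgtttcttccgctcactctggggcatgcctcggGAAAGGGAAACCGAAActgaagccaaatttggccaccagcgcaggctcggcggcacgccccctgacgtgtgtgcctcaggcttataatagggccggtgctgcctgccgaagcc
IFITM1: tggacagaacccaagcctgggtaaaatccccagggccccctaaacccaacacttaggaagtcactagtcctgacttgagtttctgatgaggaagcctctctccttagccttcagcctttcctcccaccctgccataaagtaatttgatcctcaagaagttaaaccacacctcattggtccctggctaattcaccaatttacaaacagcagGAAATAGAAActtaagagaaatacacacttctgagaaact
CMPK1: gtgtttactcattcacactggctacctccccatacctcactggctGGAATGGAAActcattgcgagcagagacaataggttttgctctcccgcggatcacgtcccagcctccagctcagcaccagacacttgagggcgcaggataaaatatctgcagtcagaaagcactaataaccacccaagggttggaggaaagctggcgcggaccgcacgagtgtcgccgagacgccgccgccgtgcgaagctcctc
ISG15 held 2 overlapping matches to the interferon element, IFITM1 held 1, and CMPK1 held 1 composite match at 205 to 196 bases before its start. The interferon element was found in 10 of 19 interferon list promoters (52.6%), against 3.07% of all promoters and 3.19% of tested genes. Among the 288 lower genes at an adjusted p under 0.1 with a promoter, 9 held it (3.12%) and 7 held the composite element (2.43%), shares near those of all promoters. Among 103 higher genes the counts were 4 and 4 (3.88% each). No match says only that these letters are not in this window.

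Genes that mark B cells, before they turn into plasma cells, lay mostly higher. Of 20 measured, 14 were above 0 (median 0.33), with 7 higher and 0 lower at an adjusted p under 0.1 (35% higher, against 6.1% of all items). The median was 0.08 without centring, 0.53 with 1 feature per gene and 0.22 without series 1332. By series it was 0.64 in 1332, 0.16 in 1332b and 0.24 in 2046. The median ratio of the list was -0.30, -0.08 and -0.29 on the uninduced arrays and 0.39, 0.07 and -0.004 on the induced ones. In series 2046 the uninduced array was thus the low one, with the induced median near 0. PLCG2 was described above. CD37, a B cell tetraspanin, went from -1.37, 0.13 and -0.72 uninduced to 0.34, 0.52 and 1.10 induced (difference 1.30, SE 0.35). MS4A1 (CD20) went from -0.39, 0.04 and -0.73 to 0.45, 0.41 and 0.19 (difference 0.71, SE 0.21). CD79B, a chain of the B cell receptor, stood at 0.60, BCL11A, a factor of B cell development, at 0.68, and ID3, an inhibitor of E proteins, at 0.70. CIITA, the master regulator of MHC class II, stood at 1.11 (SE 0.36), with 2.28, 0.14 and 0.90 in the series. BCL6, which holds germinal centre B cells before the plasma cell step, stood at 0.56 (SE 0.21, limma adjusted p 0.116). BACH2, SPI1 and CR2 stood near 0, at 0.03, 0.08 and 0.11, each with features of opposite sign. LYN (-0.45), BLNK (-0.38) and SWAP70 (-1.15) lay below 0, SWAP70 with -3.50 in series 1332b and 0.64 in 2046.

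Markers of cells that a KMS12 culture should not hold moved beside the B cell markers. All 10 measured T cell markers lay above 0 (median 0.28), as did all 7 erythroid and stromal markers (median 0.55) and 5 of 6 myeloid markers (median 0.42). Without centring these medians were 0.03, 0.29 and 0.16. Over all items, 1949 of 3670 lay above 0. At an adjusted p under 0.1, 0 of the T cell, 1 of the myeloid (CSF3R, 0.54) and 1 of the erythroid and stromal markers (HBB) were higher. These are 0%, 16.7% and 14.3% of the lists, against 6.1% of all items. The summed level of these lists could not be given because ratios carry no level, and their part in the B cell result was not tested. In bulk RNA, fewer cells of a type and less RNA per cell cannot be told apart. Leaving out the induced array of series 2046 put 3 B cell markers (CD79B, PLCG2 and SPIB) and 3 erythroid and stromal ones (FN1, HBB and PDGFRA) past the threshold on the higher side.

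MHC class II genes stood at a median of 0.31 over 9 measured, and 8 lay above 0, but the series were not alike. The median was 0.60 in series 1332, 0.37 in 1332b and -0.13 in 2046, and over all series it was 0.05 without centring. CIITA, also counted among the B cell markers, is 1 of the 9. At an adjusted p under 0.1, 1 member was higher (11.1%, against 6.1% of all items). CD74, the invariant chain, measured by 9 features, went from 0.19, 0.14 and 0.36 to 0.84, 0.67 and 0.38. HLA-DRA stood at -0.22. Of the MHC class I genes, B2M, the light chain, stood at -1.03 (SE 0.32), while HLA-G, HLA-E and HLA-B stood at 0.29, 0.19 and 0.03, the last pair with features of opposite sign. The median of these 4 was 0.11 and lay below 0 without centring.

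Values of the same genes at days 4-5 are set beside these as a description, since both windows share the uninduced arrays. IRF4 stood at -0.79 against uninduced at days 4-5, CCNC at -0.79, TMEM123 at -0.65 and DBF4 at -0.69. TMEM123 in series 1332b was at 0.23 and DBF4 there at -0.02. NPM1 stood at -0.43, a mean of 2 series because it had no value on the series 2046 array. Among the higher genes PLAU stood at 1.03, HBB at 1.09, SOX4 at 0.95 and MAPK3 at 0.33.

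Arrays of H929 and SKMM1, other myeloma lines with hairpin 2046 at day 4, share no sample with this comparison. They have no uninduced array, so a dye effect stays in their ratios. Of the 12 lower genes 7 had a value on all 3 of those arrays, and 5 were below 0 on all 3 (32.7% of 2655 items were). CMPK1 was at -0.80, -0.76 and -1.18, and TMEM123 at -0.74, -1.79 and -2.75, in H929 repeats 1 and 2 and SKMM1. CCNC went the other way, at 0.55, 0.56 and 0.19. Of the 12 higher genes 8 had all values and 3 were above 0 on all 3 arrays (35.7% of items were), a share near that of all items. CDKN1A was among them at 0.51, 0.26 and 0.33, while SOX4 was below 0 on all 3 at -0.43, -0.62 and -0.28.

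Properties of the gene or spot that were not used in the choice showed little relation to the difference. By how many of the 13 arrays measured an item, the median was 0.11 for 67 items seen on 6 to under 10 arrays and 0.06 for 1803 seen on all 13. The series were not alike in this. For the same classes in order, the medians were 0.205 and 0.065 in series 1332, -0.075 and 0.117 in 1332b, and 0.127 and -0.036 in 2046. By promoter GC content, the median of 479 named genes in the lowest quartile was 0.01 and that of 478 in the highest 0.06. The lower genes at an adjusted p under 0.1 numbered 70, 72, 85 and 61 from the lowest to the highest quartile.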

How the data were processed

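Per the labels' protocols, the RNA came from a Trizol extraction and was reverse transcribed into dye-labelled cDNA for 2-colour Lymphochip arrays. The authors deposited 1 table of log2 ratios of 15246 features. No label names the log base, taken here as log2 from the range, and the background correction, spot filter and normalization were not given in these sources. The direction, Cy5 hairpin over Cy3 control, follows the dyes in the labels. Gene names came from the platform annotation, updated by gene identifier through RefSeq (10169 features had 1 symbol, 4 several, 5073 none; 41 kept an older symbol). Features without a single symbol were tested but not named.

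Features with a value on all 6 arrays were centred on each array's median and averaged per gene; 215 of 886 genes with several features had features of opposite sign. The two-sided tests came from limma 3.58.1 (lmFit and eBayes; R 4.3.3) on the 9 KMS12 arrays at days 0 to 5, with culture series as a block and Benjamini-Hochberg adjustment over 3670 items at a threshold of 0.05. The days 4-5 arrays add to the estimate of spread only. The series name, shared in the labels, pairs the arrays: deviations from group means correlated within series at 0.135, 0.202 and 0.199 for 1332, 1332b and 2046. The fit was run on simulated data with known changes, with a check that it returned their mean size. That check did not cover the number of calls at the threshold.

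Genes named were IRF4, then the 12 lower and 12 higher named genes that passed, filled up by smallest p with the same sign in all series, then up to 4 members per list by p; other members named were chosen after their values were seen. The rule, the 27 gene lists and the alternatives (block, samples, filter, centring, scaling, weights, 1 feature per gene, arrays or series left out) were chosen with earlier results of these data known. Promoter sequences are from RefSeq.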

Additional observations from a re-analysis of the deposited data

How the results depend on the processing

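The count of genes past the threshold, 0 with the series as a block, stayed at 0 without the replicate block (9 or 13 arrays), with only the 6 arrays compared, with a looser filter, with other centring by times measured, with scaling and with 1 feature per gene. It was 697 without centring (672 lower), where the shift between array medians enters each difference. With estimated array weights, whose iteration ended before it converged, it was 1241. The cause of these counts was not tested. Leaving out 1 array or series gave 0 to 609, with 609 from the induced array of series 2046 and 1 from leaving out series 1332b. Leaving out the whole of series 2046 gave 0. At an adjusted p under 0.1 the count was 712, against 542 and 608 with no replicate block on 9 and 13 arrays, 0 with features on at least 2 of 3 arrays of each group (6092 items), 195 with scaled arrays, 1687 with array weights, 105 with scaling and no block (an alternative chosen after seeing the data), and 0 to 1120 on leaving out an array or series. The result for IRF4 at days 2-3 against uninduced kept its direction in all 19 alternatives. Its difference was -1.70 without centring (limma adjusted p 0.0123) and -1.43 with array weights (0.00421), both past the threshold, and -1.62 to -1.22 on leaving out an array or series. The 24 other named genes kept their direction in every alternative that gave a value, though HBB, IL11RA, PLCG2 and SOX4 were smaller by over 1.5 times with the looser filter. These 24 had been chosen for the same sign in all 3 series, so leaving out a series could not turn their direction. Over all alternatives, 462 list medians stayed within the spread over series and 51 moved beyond it. The replicate block changed no call at the threshold of 0.05.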
